A study of Mus musculus with 6 samples.

Results

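The transcripts of 42 genes for chemokines and their receptors were examined in the submandibular gland (SMG) of adult female mice, 27 of them ligands and 15 receptors. They were every row of the authors' filtered table of 17527 genes whose symbol begins with Ccl, Cxcl, Cx3c, Xcl, Xcr or Ackr or reads Ccr or Cxcr with a single digit, except for the B cell homing receptor Cxcr5, which was left out. Chemokines are small secreted proteins that steer leukocytes along gradients, and most of them bind heparan sulfate, which holds them on cell surfaces and in the matrix. They signal through G protein-coupled receptors on the responding cells, whereas the atypical receptors of the Ackr group bind chemokines without G protein signalling and shape their gradients. In glands, some members are products of the epithelium, such as CCL28, and others mark infiltrating or resident immune cells.

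The study asked how 3-O-sulfated heparan sulfate, made by the sulfotransferases HS3ST3A1 and HS3ST3B1, acts in the SMG. Bulk RNA-seq libraries came from 3 wildtype (WT) female mice, numbered 1, 4 and 5, and from 3 females labelled as the Hs3st3a1;Hs3st3b1 double knockout (DKO), also numbered 1, 4 and 5. Both genes are disrupted in every cell of a DKO animal: a nuclease-made frameshift deletion in the first exon of Hs3st3a1 lies on a chromosome with a knockout allele of Hs3st3b1. Exact ages are not given in the labels. WT and DKO stand below for these labels. The targeted genes gave no check of them, since Hs3st3a1 had 15, 11 and 15 counts in WT 1, 4 and 5 and 11, 8 and 13 in the libraries labelled DKO 1, 4 and 5, and Hs3st3b1 had 173, 203 and 261 against 255, 120 and 189 (log2 ratio of DKO to WT -0.04 with SE 0.24, adjusted p = 0.976 in DESeq2). By qPCR the paper found neither gene expressed in adult DKO glands of either sex, which these counts do not show. The reason for the difference was not tested. Libraries held 23674258 to 29611975 counts, and whole glands were sequenced, so fewer cells of a type and less RNA per cell cannot be told apart. WT 4 stood apart among the WT libraries, with the lowest WT value for 35 of the 42 genes, and WT 1 was the highest of all 6 libraries for 20 genes.

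The promoters of Cxcl9 and Ccl8 are shown because these were the ligands that passed the test, and that of Cxcl10 because it is the neighbour of Cxcl9 and shares its receptor CXCR3. Each runs from 250 bases before to 50 bases after the RefSeq gene start in build GRCm38.p6, 5′ to 3′ on the gene's own strand. Capitals mark the interferon-stimulated response element (ISRE: GAAA, any 2 bases, GAAA), the TATA box letters TATAAA and the NF-kB consensus, each searched on both strands together with the gamma-activated site TTCNNNGAA.
Cxcl9, chr5:92328030-92328329, minus strand: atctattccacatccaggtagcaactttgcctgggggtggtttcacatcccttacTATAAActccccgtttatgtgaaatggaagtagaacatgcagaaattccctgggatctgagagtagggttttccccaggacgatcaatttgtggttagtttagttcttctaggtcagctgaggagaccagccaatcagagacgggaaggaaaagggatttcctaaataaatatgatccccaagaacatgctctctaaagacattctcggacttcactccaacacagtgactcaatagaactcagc
Cxcl10, chr5:92348840-92349139, minus strand: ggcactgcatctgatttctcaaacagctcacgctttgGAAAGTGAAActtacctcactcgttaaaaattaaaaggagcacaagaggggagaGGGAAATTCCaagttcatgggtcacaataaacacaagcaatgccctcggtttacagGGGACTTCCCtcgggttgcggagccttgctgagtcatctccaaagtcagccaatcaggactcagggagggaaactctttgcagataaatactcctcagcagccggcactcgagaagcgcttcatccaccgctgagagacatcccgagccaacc
Ccl8, chr11:82114935-82115234, plus strand: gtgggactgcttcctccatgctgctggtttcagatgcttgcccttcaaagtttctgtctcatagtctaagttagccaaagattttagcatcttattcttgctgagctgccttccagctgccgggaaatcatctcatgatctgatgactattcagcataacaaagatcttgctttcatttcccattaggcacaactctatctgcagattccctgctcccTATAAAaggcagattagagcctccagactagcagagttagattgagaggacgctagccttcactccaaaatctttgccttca
The Cxcl10 window held 1 ISRE match, with its first base at -213 from the start site, and NF-kB matches at -159 and -103. The Cxcl9 window held none of these letters and a TATAAA at -195, and the Ccl8 window had a TATAAA at -32. RefSeq promoters were matched for 32 of the 42 genes, 36 windows in all. Of these windows 5.56% held an ISRE match, against 3.44% of all 32851 promoters of this length, and 5.56% held a gamma-activated site, against 8.3%. The TATAAA letters were in 30.6% of the windows against 13.6% of all promoters, and NF-kB matches in 19.4% against 4.51%. A letter match describes the sequence and not a bound site.

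Ligand transcripts were dominated by epithelial products. On the scale of normalized counts (counts divided by the size factor of the library) per kb of exon, Cxcl17, a mucosal chemokine, averaged 969 ± 146 (SD, n = 6) and Ccl28, the mucosal ligand of CCR10 and CCR3, averaged 917 ± 305. Their ranges over the 6 libraries, 750 to 1136 and 693 to 1522, overlapped. Cxcl14, a homeostatic epithelial chemokine, came next at 292 ± 88.6, with a range of 172 to 431 that overlapped neither the level above nor the level below it. Fractalkine (Cx3cl1, the membrane-bound ligand of CX3CR1) averaged 120 ± 17.8, the eosinophil attractant Ccl11 102 ± 25.9 and the CXCR6 ligand Cxcl16 80.0 ± 22.8, and each of these ranges overlapped the next. By plain normalized counts, Ccl28 alone made up 51.7% to 74% of the sum over the 27 ligands. Among receptors, Cx3cr1, found on macrophages and monocytes, was highest per length at 54.4 ± 9.64, ahead of the monocyte receptor Ccr2 at 36.3 ± 19.8, the CXCL12 scavenger Ackr3 at 22 ± 5.45 and the CXCL12 receptor Cxcr4 at 14 ± 9.03. Neighbours in this receptor order overlapped in range.

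**Figure D1:**
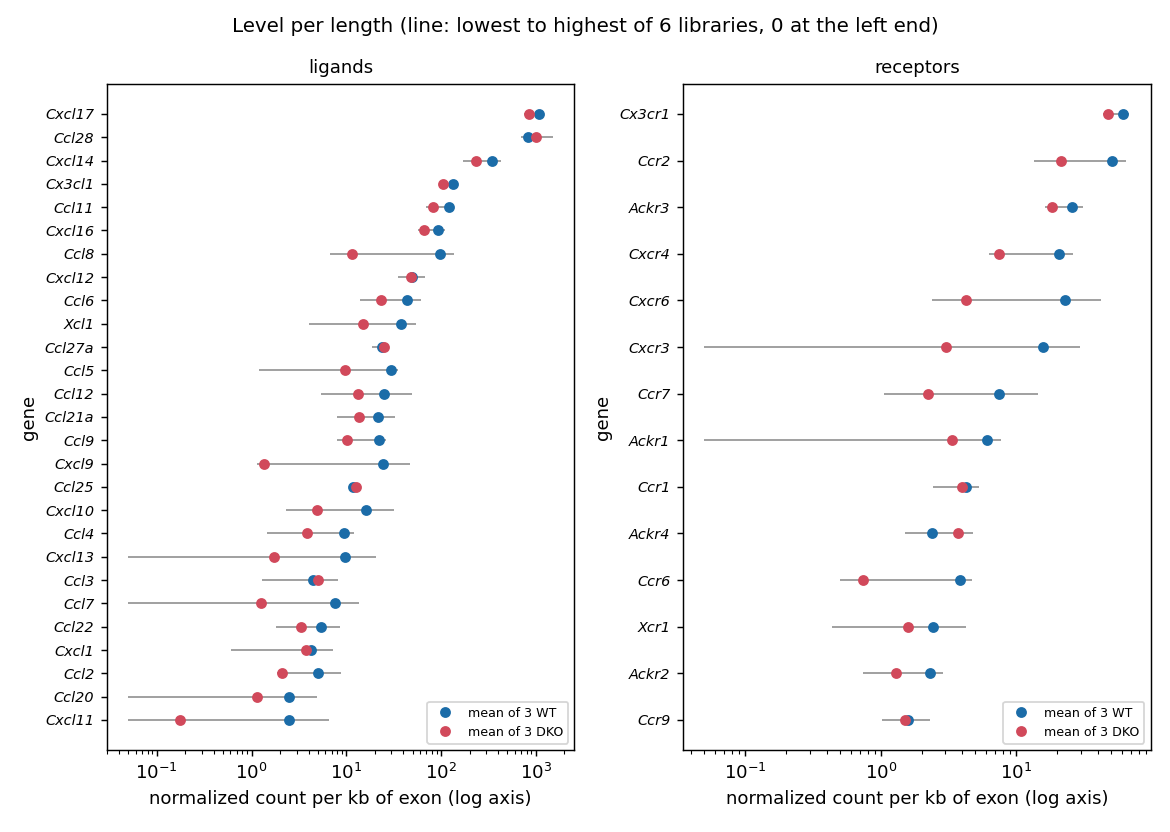
Level of each ligand (left) and of 14 receptors (right) as normalized counts per kb of exon on a log axis, with the mean of the 3 WT libraries (blue), the mean of the 3 libraries labelled DKO (red) and a grey line from the lowest to the highest of 6 libraries (values of 0 end at the left). Cxcl17 and Ccl28 lie above all other ligands, and no receptor reaches the level of Cx3cl1.

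In the comparison of genotypes, 5 of the 42 genes passed the DESeq2 test at an adjusted p under 0.05, all lower in the libraries labelled DKO. They were 2 ligands, Cxcl9 and Ccl8, and 3 receptors, of which Ccr2 and Cxcr6 are described here. Over all 18606 rows tested 1.88% passed in this direction and 1.02% in the other, in which no chemokine or receptor gene passed. Without adjustment 21 of the 42 had p under 0.05, all lower, against 12.2% of all rows in both directions. Every library labelled DKO was below every WT library for 17 of the 42 genes, against 10.5% of all rows, and the opposite order was seen for none. The log2 fold change (DKO over WT, called the log2 ratio below) was negative for 37 genes and positive for 5, with a median of -0.88 where that of all rows tested was 0.00. These sums include a choice made on the values: 9 of the 42 entered the authors' table, which asks for more than 5 counts in at least 1 library, through WT libraries alone (Ccl2, Ccl3, Ccl4, Ccl7, Ccl20, Ccr6, Cxcl9, Cxcl11 and Cxcl13) and none through DKO libraries alone. The other 33 genes, present in both groups, had 4 of the 5 calls, 29 negative fold changes and a median of -0.65. A further 18 matching rows, among them Ccl17, Ccl19, Cxcl2 and Ccr4, lay under that filter with 0 to 14 counts over all libraries and gave no result. Other tests on the same counts gave no call: edgeR's quasi-likelihood test called none of the 42, with 22 at an unadjusted p under 0.05, and limma-voom called none, with 16.

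**Figure D2:**
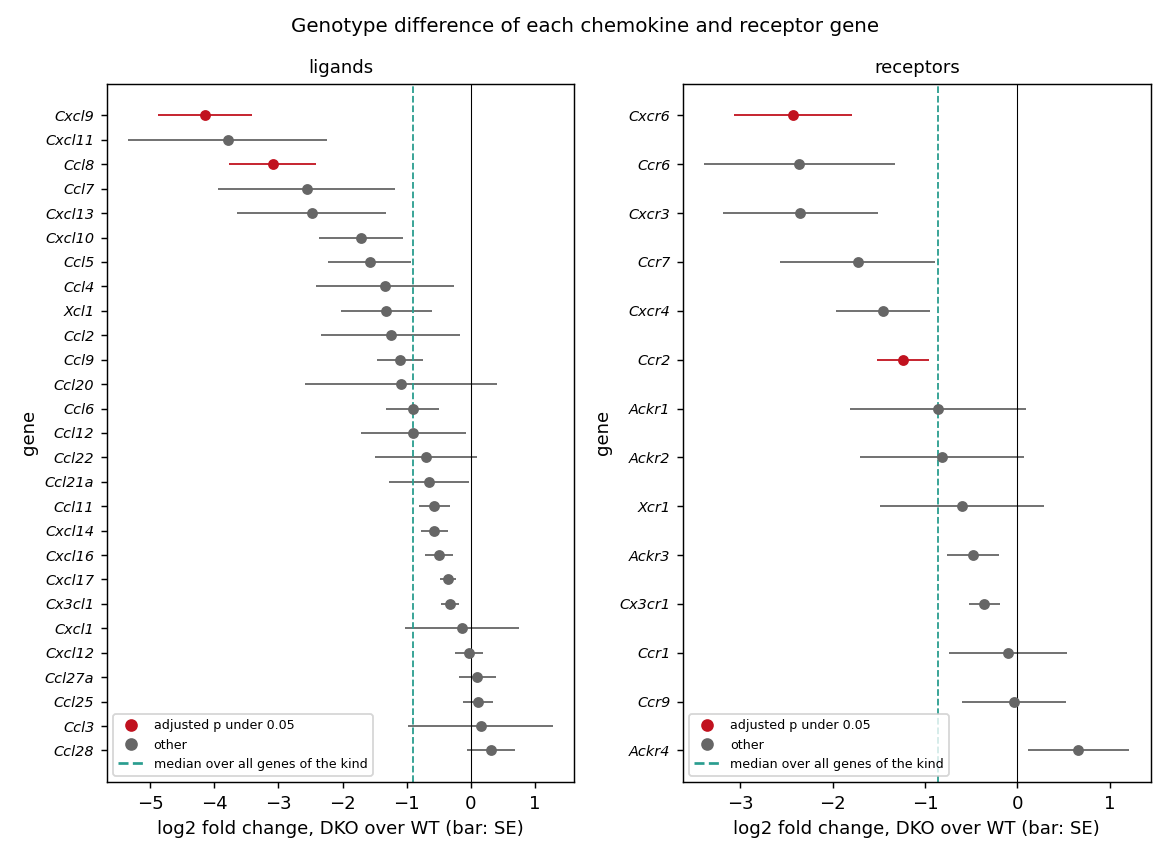
Log2 fold change of DKO over WT with its standard error (bars) for the 27 ligands (left) and 14 of the 15 receptors (right), from the DESeq2 fit of 3 against 3 libraries. Red points are genes with an adjusted p under 0.05, and the dashed lines are the medians over all 27 and all 15, -0.90 for ligands and -0.86 for receptors. These include 8 ligands and 1 receptor that entered the table through WT libraries alone, and without them the medians were -0.57 and -0.84.

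Of the 3 genes named for ligands of CXCR3, Cxcl9 passed the test, and it had the largest fold change of the 5 called genes. The annotation used here types Cxcl11 as a polymorphic pseudogene, so its counts cannot show whether these mice make the protein. Cxcl9 and Cxcl11 are among the genes that entered the table through WT libraries alone. Cxcl9, an interferon gamma-induced attractant of activated T cells and NK cells on chromosome 5 (92321347 to 92328079, minus strand, GRCm38), had 144, 15 and 70 counts in WT 1, 4 and 5 and 5, 4 and 3 counts in the libraries labelled DKO 1, 4 and 5. The groups did not overlap, although WT 4 lay nearer to the DKO libraries than to WT 1. The normalized means were 73.3 ± 64.6 and 4.13 ± 0.644 (SD, n = 3 each), and the log2 fold change was -4.14 (SE 0.73, adjusted p = 5.20e-06 in DESeq2). Of the 5 called genes, Cxcl9 alone passed with each library left out in turn, with a highest adjusted p of 0.0145 without WT 1. The adjusted p was 0.126 in edgeR and 0.305 in limma-voom. Cxcl10 had 72, 15 and 25 counts in the WT libraries against 16, 5 and 11, so that DKO 1 reached above WT 4 (log2 ratio -1.71 with SE 0.65, adjusted p = 0.137 in DESeq2). Without WT 4 that adjusted p was 0.0495, and without WT 1 it was 0.895. Cxcl11 had 25, 2 and 2 counts against 1, 1 and 0, so almost its whole WT total came from WT 1. Its group totals of 29 and 2 counts gave a WT to DKO ratio of 13.2 with an exact 95% counting interval of 3.35 to 114. That interval leaves out the spread between libraries and the choice through WT libraries, so it is no test of genotype. DESeq2 gave Cxcl11 no adjusted p. The 3 genes lie within 44.1 kb of each other, and Cxcl10 and Cxcl11 overlap Art3 on the opposite strand, whose reads these unstranded libraries cannot separate.

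Of the interferon gamma axis that drives CXCR3 ligands, 2 of 8 genes tested passed, both lower in the libraries labelled DKO, and the median log2 fold change of the list was -0.50. Ciita, the master regulator of MHC class II genes, had 334, 109 and 213 counts in WT and 87, 58 and 54 in DKO, which did not overlap (log2 ratio -1.61 with SE 0.34, adjusted p = 5.70e-04 in DESeq2). Irf8, a transcription factor of monocytes and dendritic cells, had 412, 210 and 338 against 207, 147 and 145 (log2 ratio -0.82 with SE 0.24, adjusted p = 0.0239 in DESeq2). The receptor chain Ifngr2 and the kinase Jak1 had log2 fold changes of -0.06 and -0.08. Ifng itself was too scarce to test, with 1, 1 and 3 counts in WT and 1, 0 and 0 in DKO.

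Monocyte and eosinophil attractants of the Ccl2 cluster on chromosome 11 (82035571 to 82116799) were all lower in mean, with 1 of 5 past the test. Ccl8, a member of the monocyte chemoattractant proteins, had 68, 12 and 79 counts in WT 1, 4 and 5 and 7, 7 and 3 in the libraries labelled DKO. The groups did not overlap, and the normalized means were 49.9 ± 33.1 and 5.81 ± 2.06 (log2 ratio -3.09 with SE 0.68, adjusted p = 7.95e-04 in DESeq2). Ccl8 did not pass without WT 5 (adjusted p = 0.0844), nor without WT 1. Ccl11 (eotaxin) had normalized counts of 126, 121 and 150 against 82.5, 110 and 74.9, a narrower WT spread and no overlap (log2 ratio -0.57 with SE 0.24, adjusted p = 0.197 in DESeq2). The rest of the cluster was sparse. Ccl2, the main monocyte ligand of CCR2, had 10, 4 and 4 counts against 3, 2 and 2. Ccl7 had 11, 2 and 6 counts against 2, 0 and 1. Its group totals of 19 and 3 gave a ratio of 5.78 with an exact 95% counting interval of 1.7 to 30.5. Both genes entered the table through WT libraries alone, and the interval leaves out the spread between libraries, so it is no test of genotype. Ccl12 had 27, 3 and 12 counts against 10, 6 and 5, the WT 4 value being the lowest of the 6.

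The inflammatory CC ligands Ccl3, Ccl4, Ccl5, Ccl6 and Ccl9, another group on chromosome 11 (83525778 to 83664683), did not pass the test in any case, and 3 of the 5 had an unadjusted p under 0.05. Ccl9, produced by macrophages and myeloid cells, came nearest, with 75, 46 and 90 counts in WT and 39, 30 and 21 in the libraries labelled DKO and no overlap of the normalized counts (log2 ratio -1.10 with SE 0.36, adjusted p = 0.0568 in DESeq2). It passed without WT 4, at 0.0105. Ccl6, a related myeloid chemokine, had 84, 41 and 123 counts against 48, 51 and 22, with WT 4 inside the DKO range (log2 ratio -0.91 with SE 0.41, adjusted p = 0.254 in DESeq2, and 0.0363 without WT 4). Ccl5 (RANTES), typical of effector T cells and NK cells, had 34, 19 and 36 counts against 15, 12 and 1, without overlap (log2 ratio -1.58 with SE 0.64, adjusted p = 0.184 in DESeq2). Of the macrophage inflammatory proteins, Ccl3 had 3, 1 and 7 counts against 4, 4 and 3, and Ccl4 had 8, 3 and 9 against 1, 2 and 4.

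**Figure D3:**
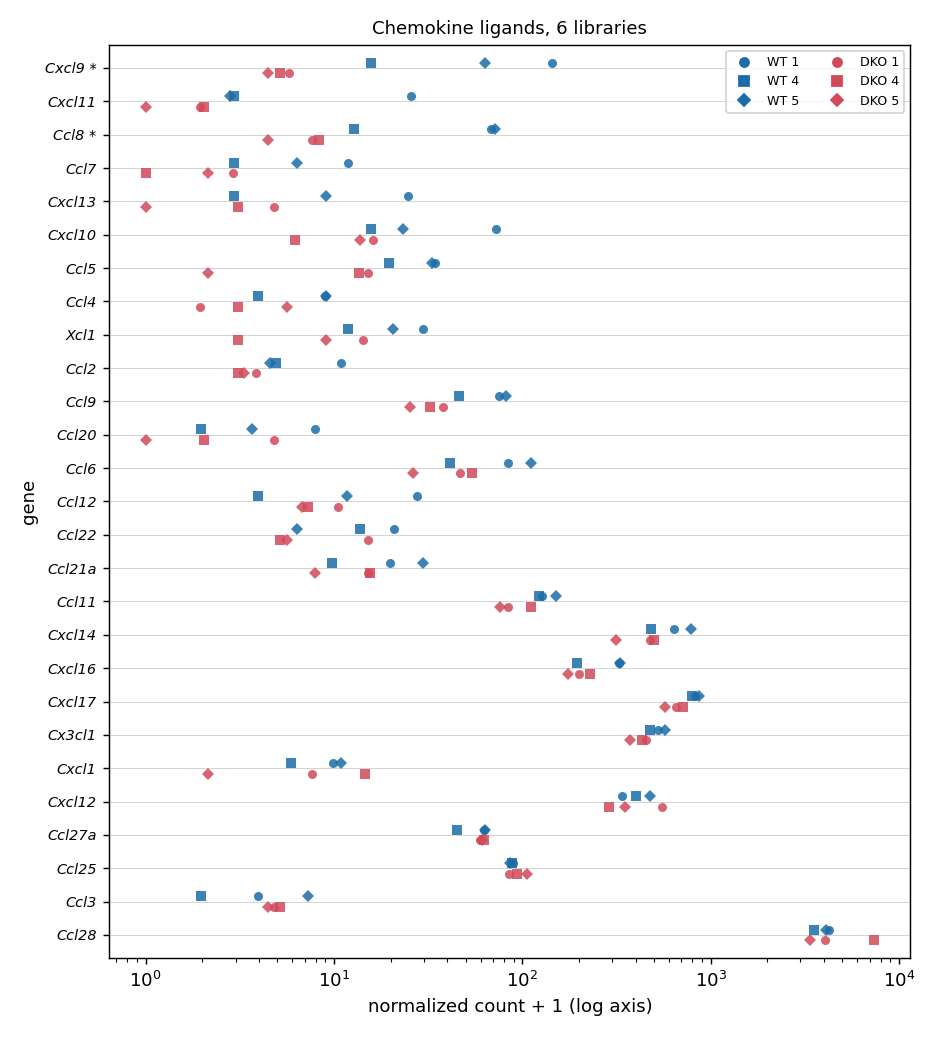
Normalized counts plus 1 of the 27 ligands in each of the 6 libraries on a log axis, with WT libraries in blue, libraries labelled DKO in red, replicate numbers by symbol and stars on the 2 ligands that passed the test. WT 4 (blue squares) is the lowest WT library for 22 of the 27 ligands.

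The abundant epithelial ligands differed little or not detectably. Ccl28 (chromosome 13, 119623819 to 119654359, plus strand) had normalized counts of 4256, 3551 and 4074 in WT 1, 4 and 5 and 4043, 7371 and 3356 in the libraries labelled DKO. DKO 4 was the highest of all and DKO 5 the lowest, so the groups overlapped, and the log2 fold change of 0.31 had a 95% interval of -0.41 to 1.04 (SE 0.37, adjusted p = 0.838 in DESeq2). Without DKO 4 the log2 ratio was -0.10. Cxcl17 was tighter, with normalized counts of 823, 798 and 864 against 658, 712 and 571, which did not overlap (log2 ratio -0.36 with SE 0.12, adjusted p = 0.0762 in DESeq2, and 0.0343 without DKO 4). Cxcl14 had 639, 484 and 788 against 474, 499 and 315, with DKO 4 above WT 4 (log2 ratio -0.57 with SE 0.21, adjusted p = 0.102 in DESeq2, and 0.022 without WT 4). Ccl25 and Ccl27a, a gut and a skin homing chemokine, had log2 fold changes of 0.11 (SE 0.23) and 0.10 (SE 0.29), and scaling by total counts made both negative. Ccl20, the ligand of CCR6, was sparse, with 7, 1 and 3 counts in WT and 4, 1 and 0 in DKO.

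The ligands Cx3cl1 and Cxcl16 are made as transmembrane proteins, and neither passed the test. Cx3cl1 had normalized counts of 524, 474 and 570 in WT and 451, 431 and 371 in the libraries labelled DKO, without overlap (log2 ratio -0.32 with SE 0.14, adjusted p = 0.225 in DESeq2). Cxcl16, whose receptor Cxcr6 is described below, had 327, 194 and 329 against 200, 228 and 173, with WT 4 inside the DKO range (log2 ratio -0.50 with SE 0.22, adjusted p = 0.250 in DESeq2, and 0.00776 without WT 4). Cxcl12, the stromal ligand of CXCR4 that also binds heparan sulfate, had 339, 401 and 473 against 553, 286 and 352, a log2 fold change of -0.03 (SE 0.22, adjusted p = 0.985 in DESeq2). Cxcl13, the attractant of B cells through CXCR5, had 24, 2 and 9 counts against 4, 2 and 0, with most of its WT counts in WT 1 (log2 ratio -2.48 with SE 1.16, adjusted p = 0.286 in DESeq2). Xcl1, made by NK cells and CD8 T cells, had 29, 11 and 22 counts against 14, 2 and 7 (log2 ratio -1.32 with SE 0.71, adjusted p = 0.399 in DESeq2). Ccl21a, the CCR7 ligand of lymphatic vessels, had 95 counts in all, which near-identical copies of the gene could share, and Ccl22 and Cxcl1 had 62 and 46.

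The summed receptor level separated the groups. Summed over the 15 genes, normalized counts were 1295, 761 and 1094 in WT 1, 4 and 5 and 703, 593 and 468 in the libraries labelled DKO (1050 ± 270 against 588 ± 118, SD, n = 3 each), without overlap. The fold change was negative for 14 of 15 receptors and every library labelled DKO was below every WT library for 7, against 10.5% of all rows. Ccr6, which entered the table through WT libraries alone, is in the sum and in both counts. Without it the fold change was negative for 13 of 14 receptors. The ligands without Ccl28 did not overlap either, at 3590, 2803 and 3810 in WT and 2760, 2587 and 2130 in the libraries labelled DKO (3401 ± 529 and 2492 ± 326). That sum holds 8 ligands that entered the table through WT libraries alone, and it leaves out the ligand with the largest positive fold change. With Ccl28 the ligands summed to 7361 ± 872 and 7415 ± 2298, and the groups overlapped.

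**Figure D4:**
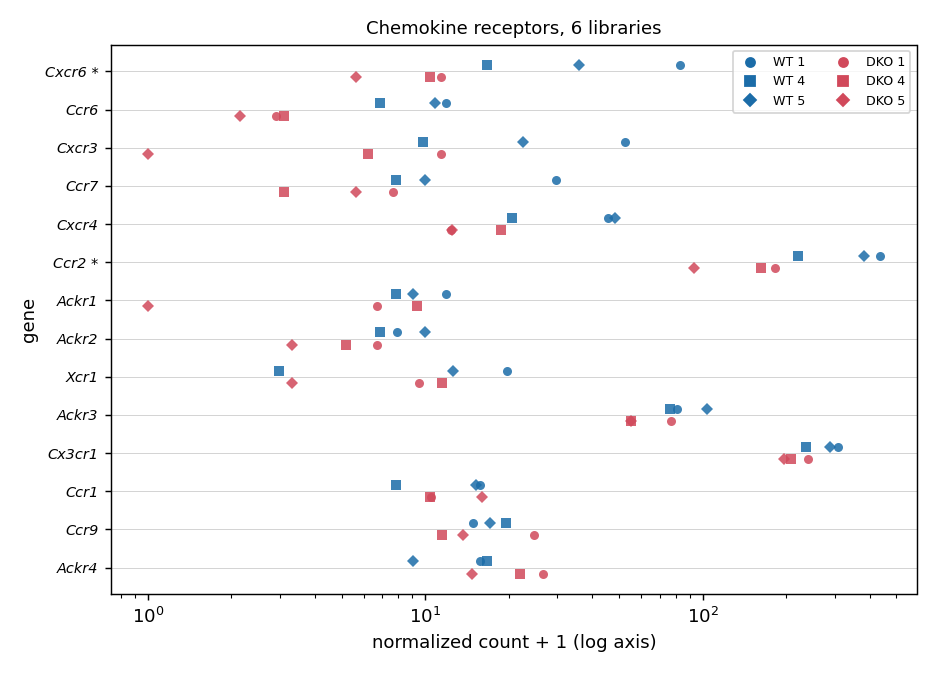
Normalized counts plus 1 of 14 of the 15 receptors in each of the 6 libraries on a log axis, with WT libraries in blue, libraries labelled DKO in red, replicate numbers by symbol and stars on Ccr2 and Cxcr6, which passed the test. Over all 15 receptors, DKO 5 (red diamonds) is the lowest library for 9.

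The leukocyte receptors Ccr2 (124101950 to 124113557) and Cxcr6 (123806475 to 123811760) on chromosome 9 fell. Ccr2, which brings inflammatory monocytes out of the marrow and into tissue, had 440, 225 and 424 counts in WT 1, 4 and 5 and 192, 155 and 80 in the libraries labelled DKO. The groups did not overlap, and the normalized means were 345 ± 112 and 145 ± 47.2 (log2 ratio -1.24 with SE 0.28, adjusted p = 0.00119 in DESeq2). Cxcr6, on tissue-resident T cells and NKT cells, had 83, 16 and 39 counts against 11, 9 and 4, with WT 4 close to the DKO values (log2 ratio -2.43 with SE 0.64, adjusted p = 0.00955 in DESeq2). These calls depended on single libraries: without WT 1 the adjusted p of Ccr2 was 0.102 and that of Cxcr6 0.432, no receptor passed without WT 1, WT 5 or DKO 5, and Ccr2 alone passed without DKO 4. Without WT 4 receptors past the test rose from 3 to 5, with Cxcr3 and Cxcr4 added. Where no receptor passed, 4, 6 and 5 of the 15 had an unadjusted DESeq2 p under 0.05. Their neighbours on this chromosome Ccr1, Ccr9 and Xcr1 had log2 fold changes of -0.10, -0.04 and -0.60 (SE 0.64, 0.56 and 0.89).

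The remaining leukocyte receptors stayed above the threshold. Cxcr3 is the receptor of Cxcl9 and Cxcl10 on activated T cells. It had 52, 9 and 24 counts in WT 1, 4 and 5 and 11, 5 and 0 in the libraries labelled DKO. DKO 1 lay above WT 4, as for Cxcl10 (log2 ratio -2.35 with SE 0.84, adjusted p = 0.0984 in DESeq2, and 0.041 without WT 4). Cxcr4, on most leukocytes, had 45, 20 and 53 counts against 12, 17 and 10, and its normalized counts did not overlap (log2 ratio -1.46 with SE 0.51, adjusted p = 0.0821 in DESeq2, and 0.0118 without WT 4). Ccr7, which takes dendritic cells and naive T cells to lymph nodes, had 29, 7 and 10 counts against 7, 2 and 4, most of the WT counts being in WT 1 (log2 ratio -1.73 with SE 0.84, adjusted p = 0.328 in DESeq2). Ccr6, the CCL20 receptor of B cells and Th17 cells, had 11, 6 and 11 counts against 2, 2 and 1, without overlap (log2 fold change -2.36, SE 1.03, with no adjusted p from DESeq2). Cx3cr1, the most abundant receptor, had the smallest fold change of the 8 receptors with an unadjusted p under 0.05, and its normalized counts were 307, 236 and 286 against 240, 207 and 196, with DKO 1 just above WT 4 (log2 ratio -0.36 with SE 0.17, adjusted p = 0.311 in DESeq2). The annotated Cx3cr1 locus overlaps genes on both strands.

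None of the 4 atypical receptors passed the DESeq2 test, and none had an unadjusted p under 0.05. Ackr3 had normalized counts of 80.2, 75.3 and 103 in WT and 75.9, 54.4 and 54.2 in the libraries labelled DKO, with DKO 1 just above WT 4 (log2 ratio -0.48 with SE 0.28, adjusted p = 0.472 in DESeq2). Ackr4, the scavenger of CCL19, CCL21 and CCL25, had 15, 16 and 9 counts against 27, 20 and 12, and its log2 fold change of 0.66 (SE 0.55, adjusted p = 0.711 in DESeq2) was the only positive value among the receptors. Ackr1 and Ackr2, at 41 and 35 counts in all, had log2 fold changes of -0.86 (SE 0.95) and -0.82 (SE 0.89).

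Leukocyte marker lists moved with these genes, and WT 4 was the lowest WT library for the summed T cell, NK cell, B cell, macrophage and dendritic cell lists. The 13 T cell markers summed to 109 to 503 normalized counts in WT and 35.5 to 56.0 in the libraries labelled DKO, all 13 had negative fold changes and 7 passed the test, and Cd8a had 38, 10 and 25 counts in WT and 0 in every DKO library. The 12 macrophage and monocyte markers in the table summed to 2597 to 4504 and 1735 to 2477, all 12 had negative fold changes, and 5 passed, Lyz2, Mrc1, Ly6c2, C1qa and C1qb. NK cell markers summed to 113 to 268 and 71.5 to 110, and dendritic cell markers to 360 to 609 and 206 to 376, and the DESeq2 test called none of either list, although 3 of 8 and 4 of 7 had an unadjusted p under 0.05. B cell markers summed to 21.5 to 259 and 9.22 to 17.1, with 2 of 7 called lower. Of the neutrophil list only Csf3r had enough counts to test, and it was called lower (log2 ratio -1.38), while Ly6g and Mpo were at 0. Plasma cell markers summed to 5898 to 6767 and 5708 to 8292, with Xbp1, which secretory cells also use, making up most of the sum (means of 6060 and 6779). Of the narrower plasma cell genes, Mzb1 had 41, 10 and 16 counts against 11, 12 and 5 (log2 ratio -1.16 with SE 0.68) and Tnfrsf17 had 4, 5 and 4 against 5, 1 and 0, and DESeq2 called none of the 4 genes, with none at an unadjusted p under 0.05. A list of lymph node markers was near its floor at 8.96 to 56.4 and 1.05 to 17.3, with Chst4 at 0 throughout. Among cells of the gland itself, 6 of 7 myoepithelial markers were called lower (10167 to 10993 against 5557 to 7361). Of 7 acinar markers 2 were called higher, Aqp5 and Mucl1, and 6 had positive fold changes. Mucl1 had 241, 64 and 105 counts in WT and 666809, 833104 and 737918 in the libraries labelled DKO (log2 ratio 12.54). Dcpp1 alone was negative, with 14, 41 and 7360 counts against 478, 55 and 20 and no p-value from DESeq2. Of 7 duct markers 2 were called lower, Egf among them. Of the 7 endothelial markers DESeq2 called none, with 3 at an unadjusted p under 0.05. The part of any of these cell types in the chemokine and receptor values was not tested.

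**Figure D5:**
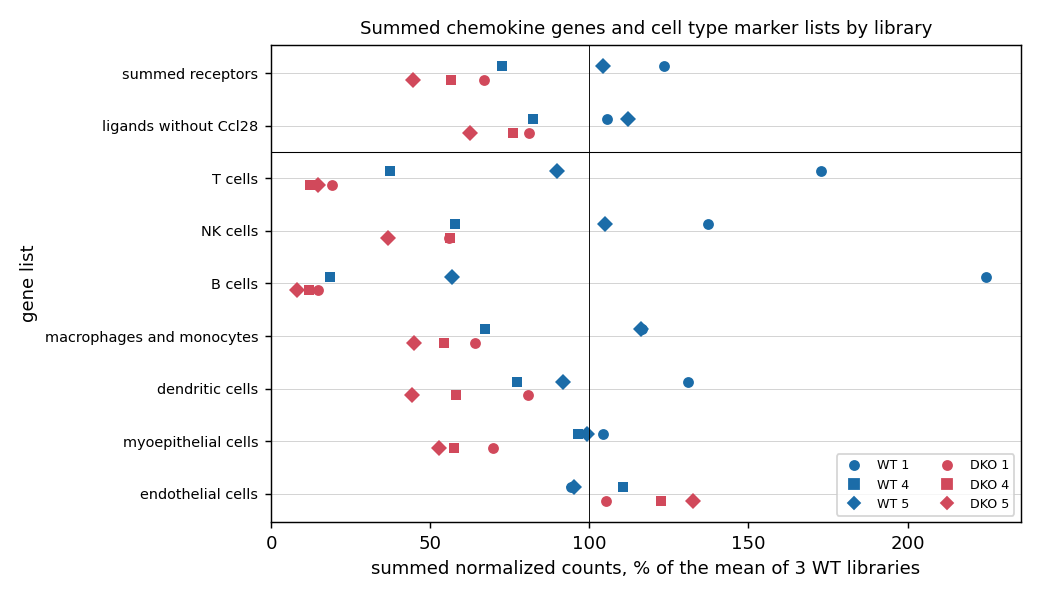
Summed normalized counts per library, as percent of the mean of the 3 WT libraries, for the receptors, the ligands without Ccl28 and 7 cell type marker lists, with symbols for replicate numbers. The 3 libraries labelled DKO lie below all 3 WT libraries for summed receptors, for the ligands without Ccl28 and for the T cell, NK cell, B cell, macrophage and myoepithelial lists.

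Of 18 genes for leukocyte chemotaxis signalling downstream of the receptors, 2 passed, both lower in the libraries labelled DKO, where 1.88% of all rows passed in this direction. Of the 18, 9 had an unadjusted p under 0.05, all lower, and the list median was -0.74. Pik3cd, the leukocyte PI3-kinase subunit, had 240, 110 and 186 counts in WT and 91, 63 and 69 in the libraries labelled DKO (log2 ratio -1.14 with SE 0.29, adjusted p = 0.00684 in DESeq2). Its groups did not overlap. DESeq2 called none of the 16 G protein, receptor kinase, arrestin and RGS genes tested (2 at an unadjusted p under 0.05, median log2 fold change -0.12), none of 5 chemokine-processing proteases (3 at that p, median -0.23) and none of 7 chemokine-like genes outside the symbol rule (1 at that p, median -0.31). That 1 was Cmklr1, the chemerin receptor of macrophages and NK cells, with 194, 144 and 204 counts against 121, 118 and 92 (log2 ratio -0.58 with SE 0.21, adjusted p = 0.0984 in DESeq2).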

How the data were processed

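Total RNA of 6 female SMGs was sequenced on a HiSeq2500 from unstranded Nextera XT libraries. Raw gene counts were deposited by the authors, keyed by symbol, as a full table of 43280 rows and as a filtered table of 17527 rows, each of which exceeds 5 counts in 1 or more libraries. Their table of normalized values was not used. The submitters' processing notes name STAR 2.5.2a, DESeq2, edgeR, limma and the builds GRCm38, mm10 and GRCh38. The counting tool and annotation are not given in the sources used here. Multi-copy genes and genes that overlap on opposite strands could therefore share reads.

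The 42 genes and all gene lists were chosen with earlier results of these data known. DESeq2 1.42.0 (R 4.3.3, median-of-ratios size factors 0.867 to 1.12, two-sided Wald test, Cook's and independent filters) was fitted to the 18606 rows whose 6 counts sum to 10 or more, and Benjamini-Hochberg adjustment ran over the whole table, leaving 2556 rows without an adjusted p. The threshold was 0.05. Groups came from the genotype labels. Nothing states that libraries are separate litters, so p-values measure the spread between these samples. Replicates differed beyond counting noise (chi-square per degree of freedom 16.8 to 43.4). Lengths and positions are GENCODE M21 (GRCm38) exon unions matched by symbol. Counting intervals cover counting error only. The procedure was also run on counts simulated gene by gene from the means and dispersions of the DESeq2 fit. That simulation held no differences shared by many genes of a library, so it does not show how the procedure handles them.

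Values in every library are given for genes with an adjusted or unadjusted p under 0.05 and for the 6 ligands and 4 receptors highest per length. Of the other genes of the pathway, those past the threshold are named; further single genes were named after their values were seen. Alternatives were edgeR 4.0.16, limma 3.58.1 (voom), TMM or total-count scaling, other count filters, a replicate block and leaving out each library. Some listed markers, such as Jchain and Adgre1, are not in the table under these symbols. Figures were drawn with matplotlib 3.10.9. Values of some genes are not reported here.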

Additional observations from a re-analysis of the deposited data

How the results depend on the processing

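Of the 23 genes given in full, Ccl28 alone turned direction under an alternative, being -0.10 without DKO replicate 4 (range -0.10 to 0.53 when 1 library was left out). Of the other 19 ligands and receptors 9 turned under at least 1: Ccl3, Ccl25 and Ccl27a with total counts, and Ccl3, Ccl12, Ccl27a, Ccr1, Ccr9, Cxcl1, Cxcl12 and Xcr1 when 1 library was left out. Genes of the pathway and marker lists were not followed singly under the alternatives. Ligands past the threshold numbered 2, and 0 with edgeR (14 at an unadjusted p under 0.05), 0 with limma-voom (9), 9 with total counts as size factors and 1 to 7 when 1 library was left out (1 without WT 1 or WT 5, 7 without WT 4). Receptors past the threshold numbered 3, and 0 with edgeR (8 at an unadjusted p under 0.05), 0 with limma-voom (7), 6 with total counts and 0 to 5 when 1 library was left out (0 without WT 1, WT 5 or DKO 5, 1 without DKO 4, 5 without WT 4). Over all rows 539 passed (350 lower, 189 higher in the libraries labelled DKO), and 10 did with edgeR, 7 with limma-voom, 1472 with total counts (1410 lower, 62 higher), 225 when a 2-fold change was also asked for and 149 to 817 without 1 library (817 without WT 4, and at most 170 without WT 1, WT 5, DKO 4 or DKO 5). Total counts moved the median of all rows to -0.23 on the log2 scale, so the added ligands and receptors stand against that shift. The cause of the other changes was not tested. Ligand medians lay between -1.22 and -0.53 and receptor medians between -1.15 and -0.55 over the alternatives. The full sets include 8 ligands and 1 receptor that entered the table through WT libraries alone. Without these the medians of the DESeq2 fit to all 6 libraries were -0.57 for ligands and -0.84 for receptors. With 3 libraries a group, the number of calls depended on single libraries of both groups, and genes with few counts had no adjusted p.

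Deviations of same-numbered libraries from their group means correlated at -0.133, -0.0244 and -0.259, and no library correlated best with its own number. With 3 libraries a group, deviations from the group mean constrain each other, so these values cannot show whether samples were paired by litter or batch. The paper calls the compared animals littermates, and the labels give no litter. With a replicate block 343 rows passed, among them 2 ligands and 2 receptors, Cxcr6 being the receptor no longer called.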
